A study of Homo sapiens with 6 samples.

Results

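The genes of CENP-A deposition and of the inner centromere were examined in U2OS cells, a human osteosarcoma line, after a small interfering RNA (siRNA) against SURF2. The 9 genes are MIS18A, OIP5, HJURP, CENPA, CENPC, CENPN, CENPT, CENPI and CENPH, out of 58051 genes in the deposited count table, and all 9 were among the 17561 genes with enough counts to be tested. MIS18A was chosen by its strong fall with siSURF2 in these same libraries, so its difference between groups is given as a description without a test. The other 8 were listed for their known roles next to it, with earlier results of these data in view. There were 3 libraries from cells given a scrambled siRNA (siSCR) and 3 from cells given the SURF2 siRNA (siSURF2). Cells of both groups received siRNA 2 times, 49 h apart, over a treatment of 96 h, so siSCR is not an untreated group. The labels give no siRNA sequence or number of siRNAs and do not say that replicates were separate cultures. The p-values then speak only to the scatter among these 6 libraries, and that scatter may be technical.

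CENP-A is the histone H3 variant that marks the centromere. Its mRNA comes from CENPA. New CENP-A is placed on chromatin after mitosis by the chaperone HJURP, which is brought to the centromere by the Mis18 complex, to which MIS18A and OIP5 (also called MIS18B) belong. The CENP-A nucleosome is then read by the constitutive centromere-associated network, the inner kinetochore, in which CENPC and CENPN touch the nucleosome, CENPH and CENPI sit in a complex with CENPK and CENPM, and CENPT links to the microtubule-binding outer kinetochore. Many of these genes are transcribed with the cell cycle through promoters that carry CCAAT boxes, E2F sites and the cell cycle genes homology region (CHR), an element bound by the DREAM and MuvB complexes.

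Promoter sequences are shown for 4 of the genes to set those elements beside the expression values that follow. RefSeq promoter windows on GRCh38.p14 (250 bases before to 50 after the annotated start) were at hand for 7 of the 9 genes, and MIS18A and CENPH had no entry. Each window was searched on both strands for the CHR as TTTGAA or TTTAAA, for the CCAAT box as CCAAT, and for E2F sites as TTTCCCGC, TTTCGCGC, TTTGCCGC or TTTGGCGC. The lines give, 5′ to 3′ on the gene's strand, the longest stretch before the start that lies in no GENCODE 29 exon, with matches in capitals. They lie at chr15:41332622-41332693 (minus strand) for OIP5, chr2:233854567-233854785 (minus) for HJURP, chr2:26785806-26785996 (plus) for CENPA and chr4:67545607-67545753 (minus) for CENPC.
OIP5: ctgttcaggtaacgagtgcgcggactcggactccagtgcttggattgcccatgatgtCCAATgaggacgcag
HJURP: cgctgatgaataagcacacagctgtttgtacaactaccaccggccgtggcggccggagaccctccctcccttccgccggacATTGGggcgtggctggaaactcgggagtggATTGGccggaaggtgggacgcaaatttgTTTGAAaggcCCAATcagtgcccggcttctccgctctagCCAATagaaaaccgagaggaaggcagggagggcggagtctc
CENPA: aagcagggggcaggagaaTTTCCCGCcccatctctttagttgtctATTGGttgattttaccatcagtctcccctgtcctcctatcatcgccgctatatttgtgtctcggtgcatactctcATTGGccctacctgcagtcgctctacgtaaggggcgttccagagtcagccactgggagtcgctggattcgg
CENPC: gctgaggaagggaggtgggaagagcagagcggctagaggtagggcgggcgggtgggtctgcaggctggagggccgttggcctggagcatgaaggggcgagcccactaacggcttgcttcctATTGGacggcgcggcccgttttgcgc

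These 4 span the range of the differences described next, from OIP5 to CENPC, but other genes inside that range are not printed. CENPT and CENPI, whose windows had no match, are among those, so the printed lines favour windows with matches. HJURP had 4 CCAAT matches and 1 CHR match, the CHR 111 bases before the start. CENPA had 2 CCAAT matches, an E2F match 232 bases before the start and 2 CHR matches, which lie nearer the start than the stretch printed. OIP5 had 3 CCAAT matches and 1 E2F match and no CHR match, and only 1 of the CCAAT matches is in the short stretch printed, because NUSAP1 starts 73 bases away on the other strand. CENPC had 2 CCAAT matches and 1 CHR match, and only 1 of the CCAAT matches is in the stretch printed. The mRNA of CENPC did not pass the test. CENPN had 1 CCAAT and 1 CHR match, and the windows of CENPT and CENPI had none of the 3 motifs. Each window takes 1 RefSeq start per gene, and other starts were not searched. The start used was base 101101058 for CENPI and base 26786056 for CENPA. Both lie inside the gene spans given below, which begin at 101098218 and 26764289. A CHR match was present in 4 of the 7 windows, against 17.4% of 17272 windows of tested genes. A CCAAT match was present in 5 of 7, against 34.1%, and an E2F match in 2 of 7, against 4.70%. A match is a description of the letters, not a bound site.

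**Figure D1:**
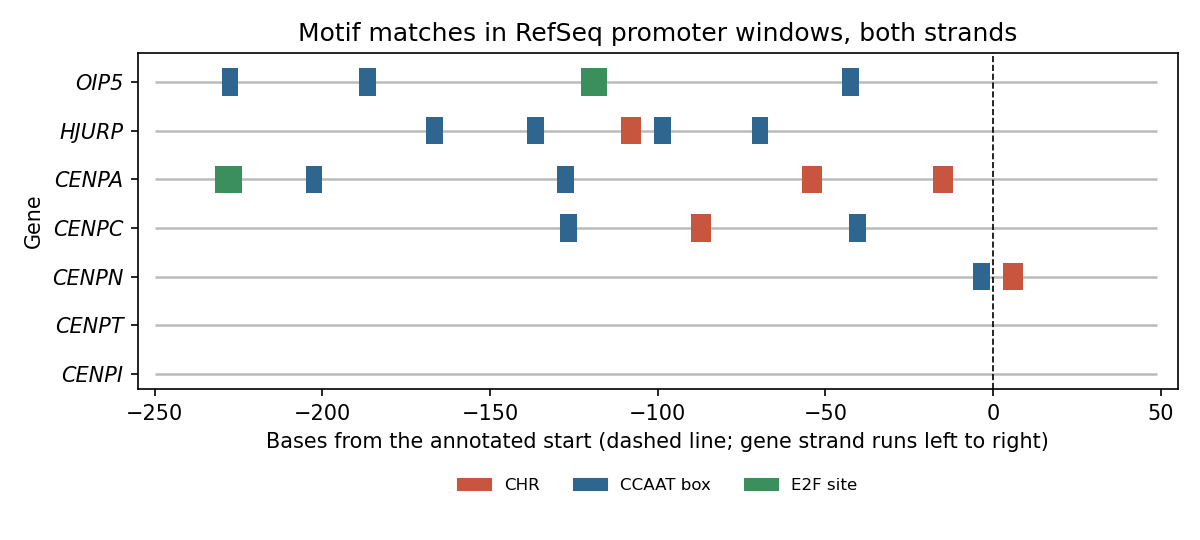
Matches to the CHR, the CCAAT box and E2F sites in the RefSeq promoter windows of 7 genes, on both strands. The horizontal axis is the distance in bases from the annotated start (dashed line), with the gene's strand running left to right. HJURP has 4 CCAAT matches around 1 CHR match, and CENPT and CENPI have no match.

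The libraries held 17123333 to 19688089 counts assigned to genes, so that 1 CPM, the unit of library-scaled counts with TMM factors, stood for 16.8 to 20.01 counts. SURF2 was at 34.8 ± 2.11 CPM in siSCR and 3.50 ± 0.276 CPM in siSURF2 (SD, n = 3 each), lower in each siSURF2 library than in any siSCR library (log2 fold change -3.31 ± 0.10, edgeR adjusted p = 3.7e-20). Library siSURF2 replicate 2 stood apart from replicates 1 and 3: chi-square divided by its degrees of freedom came to 7.96 and 9.19 for those pairs and 2.68 between replicates 1 and 3. The mitochondrial share of counts was 2.73% in it, 4.70% and 4.74% in siSURF2 replicates 1 and 3, and 2.91% to 3.50% in siSCR. The part of that share in the results was not tested. Without siSURF2 replicate 2, 8 of the 9 genes were called lower, MIS18A among them, beside 4432 of 18037 genes tested. Of 12 osteoblast markers, RUNX2 was present at 22.8 CPM in siSCR, while SP7, BGLAP, COL1A2 and IBSP were under 1 CPM in both groups, and IBSP had no count in any library. Of the 8 osteoblast markers tested, 5 rose (SPARC, COL1A1, SPP1, BMP2 and PRRX1), ALPL fell and 2 did not pass. Among all genes tested, 25.8% were called higher and 26.2% lower. The summed level of the osteoblast list was 1212 to 1262 CPM in siSCR and 1538 to 1793 CPM in siSURF2. The summed level of 9 blood and endothelial markers was 4.88 to 5.75 CPM in siSCR and 3.61 to 4.70 CPM in siSURF2, with 3 of them at 0 in every library. Of 9 epithelial markers, summing to 1482 to 1610 CPM in siSCR and 1037 to 1113 CPM in siSURF2, KRT8 and KRT18 held most, and both fell. CDH1 fell too (log2 fold change -2.70 ± 0.31), while EPCAM (0.99 ± 0.13) and CLDN4 (1.07 ± 0.08) rose. The part of these markers in the levels of the centromere genes was not tested.

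MIS18A (ENSG00000159055, chromosome 21, 32268219 to 32279069, minus strand, GRCh38), a subunit of the Mis18 complex, was the gene of the 9 that differed most. The siSCR libraries gave 112, 108 and 103 CPM, in replicate order, and the siSURF2 libraries gave 21.8, 21.8 and 24.04 CPM. All 3 siSURF2 libraries were far below the lowest siSCR library, and libraries of 1 group lay close together. Mean levels of 108 ± 4.27 CPM and 22.6 ± 1.27 CPM (SD, n = 3 libraries) differ 4.77-fold, or by 79.0%, with siSURF2 lower. The log2 fold change was -2.25 ± 0.06 (SE), and 0.604% of all tested genes had a log2 fold change at or below it. Among 12071 protein-coding genes whose mean log2 CPM reached 1 or more, it was the 28th lowest. These values chose the gene and are not evidence of their own. The counts behind them were 1876 to 2020 per siSCR library and 397 to 481 per siSURF2 library. An antisense gene, MIS18A-AS1, overlaps MIS18A by 1207 bases but shares 0 exonic bases with it. MIS18A-AS1 was at 0.531 ± 0.143 CPM in siSCR and 0.459 ± 0.425 CPM in siSURF2, with 4 to 19 counts per library and a log2 fold change of -0.18 ± 0.52 (edgeR adjusted p = 0.80).

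OIP5 (ENSG00000104147, chromosome 15, 41309268 to 41332621, minus strand), the partner that forms a heteromer with MIS18A, fell as well. It was at 41.2, 38.8 and 40.6 CPM in the siSCR libraries and at 24.5, 20.4 and 22.8 CPM in the siSURF2 libraries. The groups did not overlap, and siSURF2 replicate 2 was the lowest. The means were 40.2 ± 1.25 and 22.6 ± 2.08 CPM, 43.9% lower in siSURF2 (log2 fold change -0.83 ± 0.07, edgeR adjusted p = 1.6e-10 over all genes). Of the exon bases of OIP5, 470 (38.03%) are shared with OIP5-AS1 on the opposite strand, and whether reads were counted by strand is unknown here. OIP5-AS1, a long noncoding RNA also known as cyrano, rose from 171 ± 12.8 to 213 ± 4.21 CPM (log2 fold change 0.32 ± 0.05, edgeR adjusted p = 1.2e-05). Its share in the counts of OIP5 was not tested.

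The level of each gene per kilobase of exon allows the subunits to be set side by side. In siSCR, MIS18A was at 62.5 ± 2.48 CPM per kilobase and OIP5 at 32.5 ± 1.01 (SD, n = 3). In siSURF2, the same levels per kilobase were 13.1 ± 0.738 and 18.3 ± 1.68. MIS18A was thus above OIP5 in siSCR and below it in siSURF2. The ratio of MIS18A to OIP5 per length was 1.94, 2.00 and 1.82 in siSCR and 0.639, 0.768 and 0.755 in siSURF2. The ratio of MIS18A to HJURP was 3.36 ± 0.131 in siSCR and 0.915 ± 0.0394 in siSURF2. With 3 libraries against 3, an exact two-sided permutation test cannot go below p = 0.10, so no p is given for these ratios, which rest on the choice of MIS18A.

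**Figure D2:**
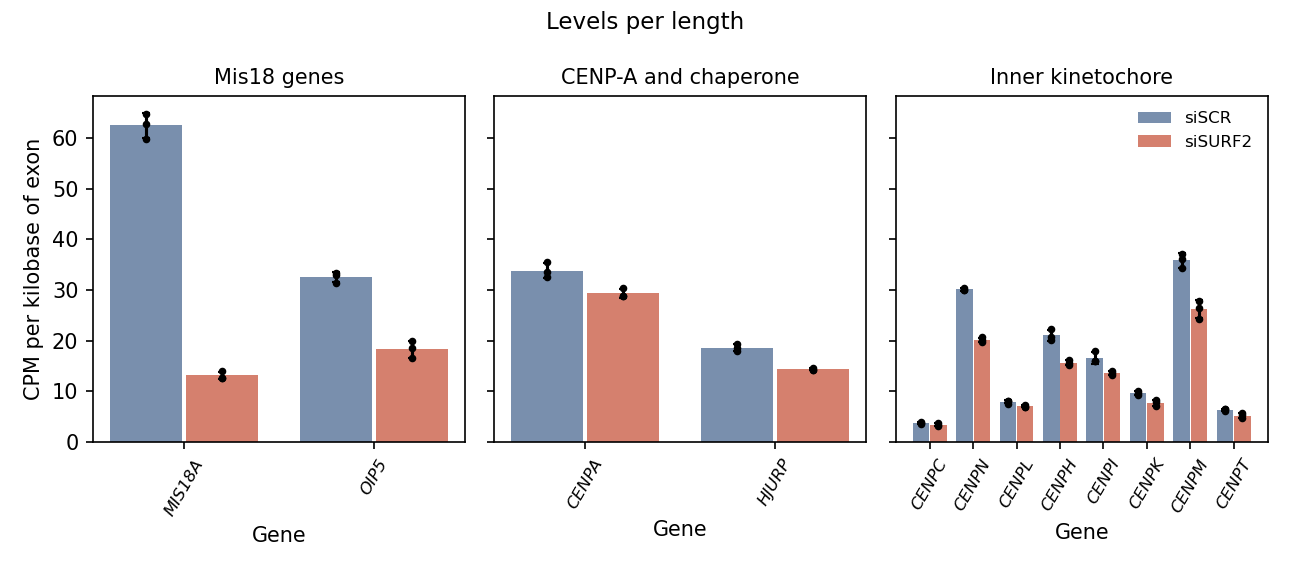
Levels in CPM per kilobase of exon (bars, mean; whiskers, SD; points, the 3 libraries of each group) for MIS18A and OIP5, CENP-A with its chaperone, and the inner kinetochore. MIS18A is the tallest bar in siSCR at 62.5 and stands at 13.1 in siSURF2, below OIP5 at 18.3.

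HJURP (ENSG00000123485, chromosome 2, 233833416 to 233854566, minus strand), the chaperone that carries new CENP-A, fell by a smaller amount. It was at 73.7, 68.7 and 70.9 CPM in siSCR and 53.9, 54.6 and 55.5 CPM in siSURF2. The siSURF2 libraries were within 2 CPM of each other and all below siSCR. The log2 fold change was -0.38 ± 0.06 (edgeR adjusted p = 2.1e-06), or 23.1% lower. CENPA (ENSG00000115163, chromosome 2, 26764289 to 26801067, plus strand), the cargo of HJURP, was at 70.3, 64.5 and 66.4 CPM in siSCR and at 57.1, 60.2 and 57.1 CPM in siSURF2. It fell by 0.21 ± 0.06 on the log2 scale (edgeR adjusted p = 0.0037), or 13.3%, and the groups lay close together without overlap. Per length, CENPA was at 33.8 ± 1.503 CPM per kilobase in siSCR and 29.3 ± 0.900 in siSURF2. The ratio of CENPA to HJURP per length was 1.82 ± 0.0191 in siSCR and 2.05 ± 0.0721 in siSURF2, higher in all 3 siSURF2 libraries. CENPA shares 138 exon bases (6.96%) with SLC35F6 on the same strand, a gene that fell by 0.13 ± 0.05 (edgeR adjusted p = 0.038), and reads from those bases cannot be told apart.

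**Figure D3:**
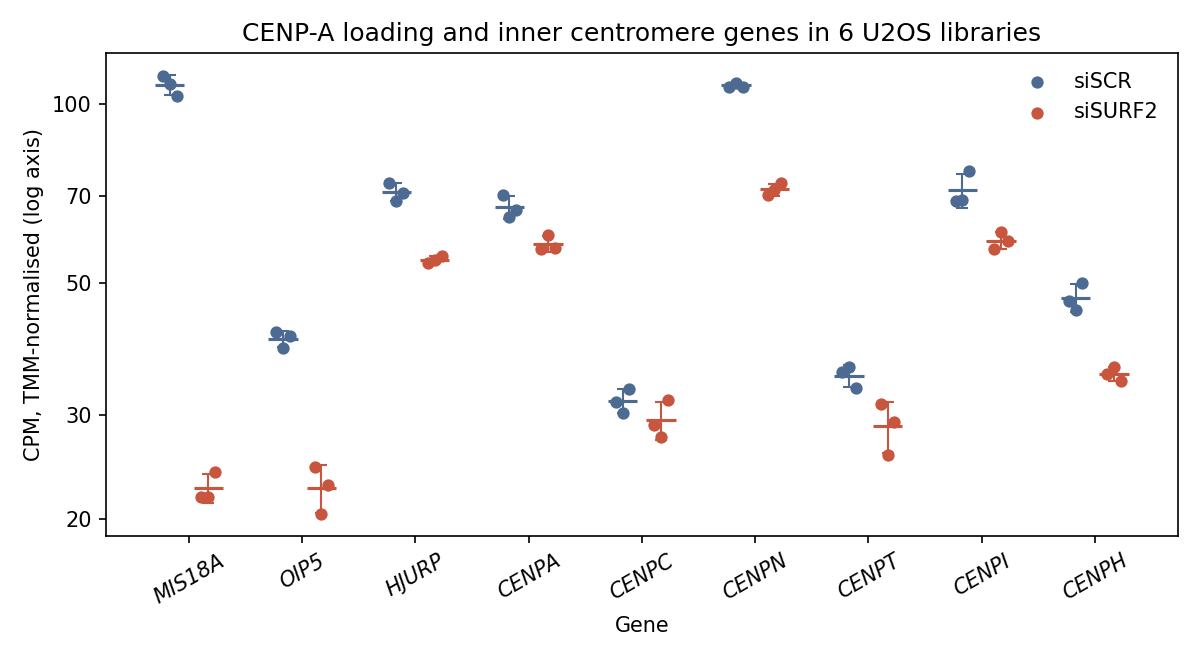
CPM (log axis) of the 9 genes in the 6 libraries, with the mean (line) and SD (whisker) of each group. MIS18A goes from 103 to 112 CPM in siSCR to 21.8 to 24.04 CPM in siSURF2, and CENPC is the gene whose groups overlap.

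In the inner kinetochore, the mRNA of CENPN passed the test and that of CENPC did not, and the proteins of both bind the CENP-A nucleosome. CENPN (ENSG00000166451, chromosome 16, 81006498 to 81033114, plus strand) was at 107, 109 and 107 CPM in siSCR and at 70.2, 71.6 and 73.6 CPM in siSURF2. The spread within groups was small, with a coefficient of variation of 0.955% in siSCR. It fell by 0.58 ± 0.05 on the log2 scale (edgeR adjusted p = 2.3e-10), or 33.2%. CENPC (ENSG00000145241, chromosome 4, 67468748 to 67545606, minus strand) was at 31.5, 30.2 and 33.2 CPM in siSCR and at 28.9, 27.5 and 31.7 CPM in siSURF2. Its groups overlapped and it did not pass the test (log2 fold change -0.11 ± 0.07, edgeR adjusted p = 0.23). CENPC was also the gene with the lowest level per length of the 9, at 3.67 ± 0.171 CPM per kilobase in siSCR. The difference between the changes of CENPN and CENPC was not tested.

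CENPL, which pairs with CENPN in the complex, was at 38.8 ± 1.48 CPM in siSCR and 34.4 ± 0.967 CPM in siSURF2. Its log2 fold change of -0.17 ± 0.06 had an edgeR adjusted p of 0.027, and the call was lost under 9 of 16 alternative settings (adjusted p from 0.027 to 0.75). The ratio of CENPN to CENPL per length was 3.73, 4.04 and 3.70 in siSCR and 2.88, 2.89 and 2.86 in siSURF2. All siSURF2 ratios were below the siSCR ratios.

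CENPH and CENPI, which belong to 1 complex with CENPK and CENPM, all fell. CENPH (ENSG00000153044, chromosome 5, 69189548 to 69210357, plus strand) was at 46.6, 45.0 and 50.01 CPM in siSCR and at 35.1, 36.1 and 34.1 CPM in siSURF2 (log2 fold change -0.43 ± 0.06, edgeR adjusted p = 2.5e-06). CENPI (ENSG00000102384, chromosome X, 101098218 to 101163681, plus strand) was at 68.6, 68.9 and 77.1 CPM in siSCR and at 57.0, 60.8 and 58.8 CPM in siSURF2. Replicate 3 of siSCR was the highest for CENPI, and the groups did not overlap (-0.28 ± 0.06, edgeR adjusted p = 2.3e-04). CENPK went from 41.6 ± 1.65 to 33.3 ± 2.76 CPM (-0.32 ± 0.07) and CENPM, a small subunit of the same complex, from 63.7 ± 2.60 to 46.6 ± 3.13 CPM (-0.45 ± 0.06). The ratio of CENPH to CENPK per length was 2.18 ± 0.104 in siSCR and 2.04 ± 0.221 in siSURF2, with overlapping groups. That of CENPI to CENPH was 0.787 ± 0.0195 and 0.871 ± 0.0262, without overlap.

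CENPT (ENSG00000102901, chromosome 16, 67828157 to 67847811, minus strand), which carries the histone fold and recruits the NDC80 complex, was at 35.4, 36.1 and 33.2 CPM in siSCR and at 31.3, 25.6 and 29.1 CPM in siSURF2. The siSURF2 libraries were more spread, with a coefficient of variation of 10.0%, and replicate 2 was the lowest. It fell by 0.28 ± 0.07 on the log2 scale (edgeR adjusted p = 0.0021). CENPT overlaps 3 genes on the opposite strand and shares exon bases with them, 10.8% with TSNAXIP1, 6.86% with THAP11 and 1.99% with NUTF2. Of these, NUTF2 rose (0.40 ± 0.05, edgeR adjusted p = 2.4e-07), and THAP11 and TSNAXIP1 did not pass. CENPN shares 12.8% of its exon bases with CMC2, which fell by 0.24 ± 0.06 (edgeR adjusted p = 0.0015). Pseudogenes of CENPN, CENPC and CENPI had at most 48 counts in a library.

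Of the 9 genes, 8 were called lower and 0 higher at an edgeR adjusted p under 0.05, against 26.2% of all genes tested called lower and 25.8% called higher. At an unadjusted p under 0.05, 0 were higher, and DESeq2 and limma-voom also called 0 higher and 8 lower. The groups did not overlap, with siSURF2 lower, for the same 8 genes, against 28.6% of all genes tested. Since this contrast chose MIS18A, nothing is read from these counts. The log2 fold changes of the 9 ran from -2.25 to -0.11 with a median of -0.38 (-0.33 without MIS18A), and the median of all genes tested was 0.0042. The summed level of the 9 was 569 to 586 CPM in the siSCR libraries and 379 to 387 CPM in the siSURF2 libraries. With library sizes set by the ERCC spike-ins in place of TMM, OIP5 was still called lower. MIS18A was also past the threshold, but its fall chose it, so that call is no evidence. Those sizes called 825 of all 17561 genes tested lower. Standard errors were then 0.264 to 0.279 for the 9 genes, and the fold changes kept their sign. HJURP, CENPA, CENPN, CENPT, CENPI and CENPH then had adjusted p from 0.13 to 0.70.

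Levels per length ordered the 9 genes in siSCR as MIS18A, CENPA, OIP5, CENPN, CENPH, HJURP, CENPI, CENPT and CENPC. CENPA and OIP5 lay within their spread of each other (33.8 ± 1.503 and 32.5 ± 1.01 CPM per kilobase), and HJURP (18.6 ± 0.655), CENPI (16.6 ± 1.12) and CENPH (21.03 ± 1.14) were near each other. In siSURF2, CENPA was the highest of the 9 at 29.3 CPM per kilobase, followed by CENPN (20.1 ± 0.471) and OIP5. MIS18A was then within its spread of CENPI (13.6 ± 0.438) and above CENPT. The lengths are unions of all annotated exons, which are long for some genes. With the longest protein-coding transcript in their place, an alternative added once the data had been seen, the siSCR level of CENPT moved from 6.30 to 14.9 and that of CENPH from 21.03 to 34.0 CPM per kilobase. MIS18A stayed the highest in siSCR, at 68.3, and CENPC the lowest, at 4.56. CENPA (46.2 ± 2.05) and OIP5 (32.5 ± 1.01) were then no longer within their spread of each other in siSCR. OIP5 came after CENPN (43.3 ± 0.413) and CENPH (34.0 ± 1.85) there. In siSURF2, CENPH (25.3 ± 0.721) was then above OIP5 (18.3 ± 1.68). In siSURF2, MIS18A was then at 14.3 ± 0.808 and CENPI at 18.1 ± 0.581, no longer within their spread.

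The other genes of CENP-A deposition were mostly lower as well. Of 21 such genes, 12 fell, 2 rose and 7 did not pass, with a median log2 fold change of -0.18. Among all genes tested, 26.2% were called lower and 25.8% higher. NPM1, a histone-binding nucleolar protein found with HJURP, fell by 0.46 ± 0.05, although its many pseudogenes make its counts uncertain. HSPA8, a cytosolic chaperone, fell by 0.34 ± 0.05 and KAT7, an acetyltransferase, by 0.35 ± 0.05. PLK1, the kinase that licenses loading, fell by 0.22 ± 0.06 (edgeR adjusted p = 0.0014). SENP6, a SUMO protease that keeps inner kinetochore proteins stable, rose by 0.24 ± 0.06 (edgeR adjusted p = 7.1e-04). COPS8 of the COP9 signalosome rose by 0.17 ± 0.06 (edgeR adjusted p = 0.018), a call lost without siSCR replicate 3 and without siSURF2 replicate 2, with adjusted p from 0.0027 to 0.87 over all settings.

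Beyond the 9 genes, the rest of the kinetochore was measured from the inside out. The counts that follow stand beside 26.2% of all genes tested called lower and 25.8% called higher. Of 11 other inner kinetochore subunits, 7 fell and 4 did not pass (median -0.23), with CENPO at -0.48 ± 0.05 and CENPU at -0.51 ± 0.07. CENPQ, a neighbour of CENPU in the complex, was at -0.02 ± 0.07 (edgeR adjusted p = 0.86). Of 10 genes of the KMN network, which binds microtubules, 8 fell and 2 did not pass (median -0.40), with ZWINT at -0.69 ± 0.05, NDC80 at -0.56 ± 0.05 and SPC25 at -0.44 ± 0.06. KNL1, the large scaffold of that network, was at 145 ± 9.42 CPM in siSCR and had a log2 fold change of -0.01 ± 0.05.

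Of 9 genes of the fibrous corona and the SKA complex, 6 fell and 3 did not pass (median -0.25), SKA3 by 0.45 ± 0.06, SKA2 by 0.33 ± 0.05 and ZW10 by 0.27 ± 0.06. The 3 that did not pass were CENPE (0.06 ± 0.14), CENPF (-5.2e-04 ± 0.06) and KNTC1 (0.02 ± 0.06). The summed level of the 9 corona and SKA genes overlapped between groups, at 1100 to 1206 CPM in siSCR and 999 to 1113 CPM in siSURF2. Of 7 genes of the chromosomal passenger complex and shugoshins, which act at the inner centromere, 5 fell and 2 did not pass (median -0.37), CDCA8 by 0.51 ± 0.05, BIRC5 by 0.40 ± 0.05 and AURKB by 0.38 ± 0.06. In these 4 lists no gene was called higher by edgeR, DESeq2 or limma-voom, nor at an unadjusted p under 0.05 by edgeR. Over the 58 genes of these 5 lists, 38 (65.5%) were called lower and 2 higher, against 26.2% and 25.8% of all genes tested. Among the 67 genes made of the 9 and these 58, MIS18A was the lowest at -2.25, followed by OIP5 at -0.83 and ZWINT at -0.69. Those lists were drawn up with results of these data known.

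**Figure D4:**
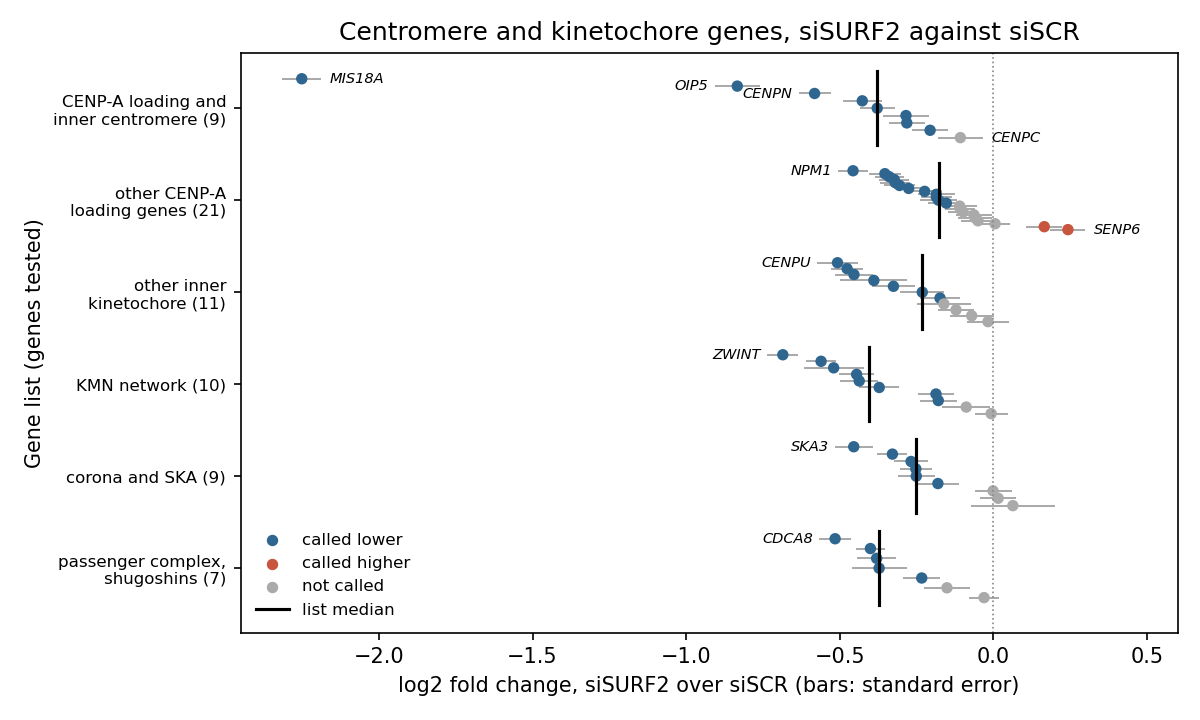
Log2 fold change (points) with standard error (bars) of the 9 genes and of 5 lists of other centromere and kinetochore genes, siSURF2 over siSCR. Black lines are list medians, from -0.40 for the KMN network to -0.18 for the other CENP-A loading genes, and MIS18A stands alone at -2.25.

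Genes of the other H3 variants and their chaperones were mixed. Of 12, 6 fell and 4 rose, with a median of -0.14, against 26.2% and 25.8% of all genes tested. With ERCC library sizes edgeR called 0 of them higher and 0 lower (0 higher and 3 lower at an unadjusted p under 0.05). Those sizes called 802 of all 17561 genes tested higher and 825 lower. DAXX, which deposits H3.3 and can take up CENP-A in excess, fell by 0.68 ± 0.06, and ASF1B and CHAF1B, which serve replication-coupled assembly, by 0.66 ± 0.06 and 0.62 ± 0.07. H3-3A rose by 0.31 ± 0.06, ATRX, the partner of DAXX, by 0.29 ± 0.05 and CABIN1, of the HIRA complex, by 0.25 ± 0.05. HIRA itself was at -0.01 ± 0.07.

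Genes of S phase, G2 and mitosis were mostly lower in siSURF2. Among all genes tested, 26.2% were called lower and 25.8% higher. Of 16 S phase genes, 14 fell and 0 rose (median -0.40), MCM6 by 0.93 ± 0.05, CDC6 by 0.80 ± 0.05 and CDC45 by 0.73 ± 0.06. Their summed level was 4760 to 4962 CPM in siSCR and 3450 to 3708 CPM in siSURF2. Of 16 genes of G2 and mitosis outside the kinetochore, 12 fell and 0 rose (median -0.26), CDC20 by 0.69 ± 0.06, TOP2A by 0.59 ± 0.05 and HMMR by 0.37 ± 0.06, and their sum was 4382 to 4503 CPM in siSCR and 3545 to 3645 CPM in siSURF2. In both lists 0 genes were higher at an unadjusted p under 0.05 by edgeR, and DESeq2 and limma-voom called 0 higher. MKI67, the proliferation marker, was at 0.04 ± 0.06. With ERCC library sizes, edgeR called 3 of the S phase genes lower and 0 of the G2 and mitosis genes (5 and 2 at an unadjusted p under 0.05). Those sizes called 825 of all 17561 genes tested lower and 802 higher. The part of the cell cycle genes in the lower levels of the centromere genes was not tested, and in bulk RNA fewer cells in a cycle stage and less RNA per cell cannot be told apart. Of 21 regulators of the cell cycle, not all of them transcriptional, 9 fell and 8 rose (median 0.08), against 26.2% and 25.8% of all genes tested. With ERCC library sizes 2 of the 21 were called lower and 3 higher, again beside 825 and 802 of all 17561 genes tested. E2F1 and E2F3, activators, fell by 0.76 ± 0.06 and 0.76 ± 0.08, and LIN52, a MuvB subunit, by 0.61 ± 0.07. E2F7, a repressor, rose by 1.15 ± 0.06 and RBL2, the p130 pocket protein of DREAM, by 0.73 ± 0.06.

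Of 13 tested genes that overlap one of the 9 or lie within 10 kb, 3 were higher, 5 lower and 5 did not pass. Among all genes tested 25.8% were higher and 26.2% lower, and nothing is read from the neighbours' counts. NUSAP1, a spindle protein whose start faces that of OIP5, fell by 0.16 ± 0.05 (edgeR adjusted p = 0.0061), a call lost without siSURF2 replicate 1 (adjusted p from 0.0042 to 0.74 over all settings). MRPS36, next to CENPH, fell by 0.34 ± 0.11 (edgeR adjusted p = 0.016). ATMIN, downstream of CENPN, was at 0.11 ± 0.05 (edgeR adjusted p = 0.091).

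The protein-coding genes whose profile over the 6 libraries was most like that of MIS18A were VTI1B, DPF3, PALM3, UBE2V2 and MMP9. Likeness was the root mean square distance between log2 CPM profiles, each centred on its own mean, and ran from 0.0380 for VTI1B to 0.149 for MMP9. VTI1B, a SNARE protein of membrane fusion, was at 260, 247 and 250 CPM in siSCR and at 54.3, 52.1 and 56.7 CPM in siSURF2. Its log2 fold change was -2.21 ± 0.05. DPF3, a chromatin remodelling subunit, was at 6.88 ± 0.670 and 1.33 ± 0.200 CPM, and PALM3 at 148 ± 2.30 and 28.5 ± 1.80 CPM. UBE2V2, a ubiquitin-conjugating enzyme variant, was at 83.2 ± 1.43 and 20.7 ± 1.70 CPM, and MMP9, a matrix protease, at 24.3 ± 1.15 and 5.92 ± 0.617 CPM. MIS18A itself was left out of this ranking. The other 8 centromere genes were not among the 5. Their log2 fold changes of -0.83 to -0.11 were far from that of MIS18A, so nothing is read from their absence. The 6 libraries form 2 groups, so likeness over them is mostly likeness of the difference between groups.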

How the data were processed

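RNA-seq libraries were made from polyA RNA of U2OS cells (2 µg of total RNA each), 3 per group. The deposited table holds unnormalized counts for each gene. Per the submitters' processing notes, fastp 0.23.1 and STAR 2.5.2b were among the tools, with GRCh38 as build. How reads were counted, on which annotation and with which strand rule the sources used here do not say: they are not given. Columns were matched to samples by name. ERCC spike-ins (92 rows, 1.12% to 1.72% of counts) entered neither library sizes nor tests. Genes passing filterByExpr (minimum count 10, minimum total 15) were tested with edgeR 4.0.16 (quasi-likelihood F-test, robust, TMM, R 4.3.3) across all genes, with Benjamini-Hochberg adjustment and a threshold of 0.05. The standard error is the absolute log2 fold change without prior count over the square root of F. Names came from a table of gene names (56948 identifiers) and GENCODE 29 (499), which also gave coordinates and exon lengths. Levels per length are CPM per kilobase of exon union.

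The members, the 12 other lists and the rule for named genes were chosen with earlier results of these data known. The rule takes the 9 genes, SURF2, partners in the same complexes, for each list and direction the 3 or fewer called genes of lowest adjusted p, neighbours within 10 kb, pseudogenes and antisense genes, and the 5 genes with the profile nearest to MIS18A. CENPQ, KNL1, CENPE, CENPF, KNTC1, HIRA, MKI67, PLK1, SPP1, BMP2, RUNX2 and the untested osteoblast genes were added after their values were seen. A few genes covered by it are not reported here, and unnamed or uncounted neighbours are given in counts only. The fit was tested on simulated data. Alternatives were RLE, upper-quartile, no and ERCC scaling, no filter and a 1 CPM filter, DESeq2 1.42.0, limma-voom (limma 3.58.1), a non-robust prior, the replicate number as a block, and leaving out each library.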

Additional observations from a re-analysis of the deposited data

How the results depend on the processing

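Over 16 alternative settings the 9 genes kept their sign, and 8 were called lower in 15 of them. In those 15, 3878 to 4580 genes of the whole table were called lower, out of 15266 to 37380 tested. The 8 include MIS18A, which was chosen by its fall, so nothing is read from that count. With ERCC library sizes 2 of the 9 were called lower, 802 genes of the whole table higher and 825 lower, and in the 5 centromere and kinetochore lists 0 were called higher and 0 lower (edgeR, with 4 lower and 0 higher at an unadjusted p under 0.05), while 56 of those 58 genes had a negative fold change. That setting moved the median of all genes by -0.04 and widened the standard errors. DESeq2 called 3895 genes higher and 4056 lower. Upper-quartile factors moved the split to 43.6% lower among genes called, from 50.3%. Leaving out 1 library gave 1 to 2 genes of the 5 lists called higher, 1 without siSCR replicate 3 or siSURF2 replicate 2, and 32 to 39 called lower. Of 17871 to 18097 genes tested, those fits called 4082 to 4292 higher and 3878 to 4574 lower. Of 224 gene values checked over 14 named genes, 198 kept their call, 26 lost it and 0 reversed. The losses under settings other than ERCC scaling included those of CENPL.

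Replicate numbers were not treated as pairs in the main fit. Deviations of same-numbered libraries correlated at 0.0035, -0.092 and -0.039, and no library correlated best with its own number. With 3 libraries per group, these values cannot show whether same-numbered libraries were handled together. With a replicate block, 4478 genes were called higher and 4550 lower, 8 of the 9 genes lower and 0 higher, and 38 of the 58 list genes lower and 2 higher. Other listed genes that lost a call under a setting besides ERCC scaling included ECT2, NSL1, SKA1, ITGB3BP, NUF2 and CDK1. At 397 to 481 counts the counting error of MIS18A in siSURF2 was 4.802%, and differences of a few percent were not detectable.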
